A study of Mus musculus with 4 samples.

Results

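The cells described here were stem-like and naive-like T cells, a small group of T cells among the live CD45+ immune cells sorted from mouse CT2a gliomas. The members were chosen by measured UMI counts of the genes named here, and no test is given on what chose them. A barcode was a member when it had 500 or more detected genes, under 10% mitochondrial UMIs (unique molecular identifiers, each standing for 1 captured transcript), and 2 or more UMIs summed over the T-cell receptor genes Cd3d, Cd3e and Trac. It also needed 2 or more UMIs summed over Tcf7, Lef1 and S1pr1, no Ncr1 and no Foxp3 UMI, fewer than 2 UMIs of Klra1, Klra6 and Klra7, fewer than 3 of Gzmc and Gzmf, and fewer than 30 of C1qa, C1qb and C1qc. This gate held 255 of the 13960 barcodes of the series, 109 of 6689 in the WT library and 146 of 7271 in the CaMKK2 KO library. The T cells outside the gate numbered 1657, and a hashtag antibody assigned 231 of the gated barcodes and 1545 of the others to 1 mouse. The remaining 24 gated barcodes carried more than 1 hashtag and were left out.

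Tcf7 encodes TCF1 and Lef1 encodes a related factor, and both keep T cells in a state that can still divide and renew. S1pr1 encodes the receptor that draws T cells out of tissue toward blood and lymph, and Klf2 encodes a transcription factor that maintains S1pr1. In tumors, T cells with TCF1 include recently arrived naive or central memory cells as well as precursor-exhausted cells, which carry Slamf6 and PD-1 and give rise to terminally exhausted cells. CaMKK2 is a calcium and calmodulin dependent kinase that activates CaMKI, CaMKIV and AMPK.

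The WT and the CaMKK2 KO (germline CaMKK2-/-) mice were C57Bl/6 animals given the mouse glioma line CT2a in the brain and were sampled at day 14, with no drug treatment. Hashtag antibodies marked 4 mice of each genotype, and the mice of 1 genotype were pooled into 1 10X Genomics channel, so that genotype and channel cannot be told apart. WT mice 1 to 4 gave 8, 23, 35 and 33 gated cells, and CaMKK2 KO mice 1 to 4 gave 17, 64, 22 and 29. Summed over a mouse's gated cells, depth ran from 57462 UMIs in WT mouse 1 to 719937 in CaMKK2 KO mouse 2. Levels are given as CPM, UMIs of a gene per 1000000 UMIs in the sum of a mouse's cells of 1 class, and errors are SDs over mice. In WT mouse 1 a count of 3 UMIs, the limit that a count of 0 allows, came to 52.2 CPM, against 4.17 in CaMKK2 KO mouse 2. The libraries shared 42 barcode sequences, of which 2 were gated in 1 of the libraries.

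The gated cells carried the markers of the label. A UMI of Gzmb, which encodes granzyme B, was also found in 34.6% of them, against 12.8% of B cells and 15.2% of macrophages. The rule used Tcf7, Lef1 and S1pr1, so their levels describe the gate and support nothing. Tcf7 was 241 ± 79.9 CPM in the gated cells (n = 8 mice), and 173 of 231 cells had a Tcf7 UMI, 129 a Lef1 UMI and 152 an S1pr1 UMI. At least 2 of these genes were detected in 173 cells, and the highest sum over them was 19 UMIs. Klf2, Klf3 and Emb, the further markers of these cells, were not in the rule. At the edge of the gate, the 132 otherwise eligible cells with 1 UMI of Tcf7, Lef1 and S1pr1 had 179.9 CPM of Klf2, 37.2 of Klf3 and 379 of Emb. The 57 cells with exactly 2 UMIs, just inside, had 247, 94 and 610.2 CPM. The 795 cells with none had 59.5, 18.2 and 119 CPM, and the 119 cells with 4 or more had 490.2, 196 and 818. The 55 cells with exactly 3 UMIs had 363, 102 and 596 CPM, so Emb was no higher than at 2 UMIs. The levels of these 3 markers thus differed on both sides of the threshold and not at it alone, and the gate was a cut through a range. Gzmb did not change in steps, at 1267 CPM with none, 1195 at 1 UMI, 314 at 2, 674 at 3 and 177 at 4 or more.

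Klf2, Klf3 and Emb are shown by the 250 bases before their start in RefSeq, 5′ to 3′ on the coding strand of the mouse build GRCm38.p6, because all 3 were high in the gated cells without being used to choose them. Proteins of the Krüppel-like family, Klf2 and Klf3 among them, are known to bind CACCC, and the capitals mark each CACCC or its reverse complement GGGTG. The windows lie on the plus strand at chr8:72318812-72319061 for Klf2, chr5:64803271-64803520 for Klf3 and chr13:117220323-117220572 for Emb. The annotations place the starts differently, since GENCODE starts Klf2 and Klf3 inside these windows, at 72319033 and 64803388, and starts Emb upstream of its window, at 117208536, so that the Emb window lies within the GENCODE gene.
Klf2: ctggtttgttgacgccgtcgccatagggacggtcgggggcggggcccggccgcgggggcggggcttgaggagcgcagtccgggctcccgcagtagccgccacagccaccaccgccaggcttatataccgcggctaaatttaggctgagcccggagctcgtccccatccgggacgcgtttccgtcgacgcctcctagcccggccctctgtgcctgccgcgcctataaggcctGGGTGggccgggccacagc
Klf3: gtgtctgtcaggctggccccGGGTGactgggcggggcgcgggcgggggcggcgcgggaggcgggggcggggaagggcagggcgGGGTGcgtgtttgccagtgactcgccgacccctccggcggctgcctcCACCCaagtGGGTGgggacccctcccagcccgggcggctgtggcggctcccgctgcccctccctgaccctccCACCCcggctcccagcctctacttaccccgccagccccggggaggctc
Emb: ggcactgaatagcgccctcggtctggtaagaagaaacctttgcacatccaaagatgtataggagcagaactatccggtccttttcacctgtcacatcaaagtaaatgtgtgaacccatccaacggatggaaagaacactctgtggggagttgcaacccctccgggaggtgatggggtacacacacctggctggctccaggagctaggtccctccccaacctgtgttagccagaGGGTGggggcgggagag
The Klf3 window held 5 matches, 2 of CACCC and 3 of GGGTG, and the Klf2 and Emb windows held 1 GGGTG each. Of 27025 mouse promoter windows of this length, 1 per gene, 51.3% held at least 1 match and 0.625% held 5 or more. A match of these letters is a description of the sequence and not a binding site.

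Against the other T cells of the same mice, the gated cells were higher in Klf2, Klf3, Ccr7 and Tnfsf8 in every mouse. This comparison has no test, because the gate was set on measured values of the same cells, and the number of mice with the same direction is given in its place. Klf2 was 405 ± 174 against 102 ± 47.4 CPM and Klf3, a related factor, was 157 ± 50.8 against 26 ± 18.3 CPM, both higher in 8 of 8 mice. Klf2 in the gated cells of WT mice 1 to 4 was 278, 470.3, 436 and 743 CPM, and in CaMKK2 KO mice 1 to 4 it was 343, 351, 150.0 and 466. In the other T cells the values were 193, 45.9, 89.3 and 121 and 91.8, 137, 54.6 and 86.5 CPM in the same order. The lowest gated value, in CaMKK2 KO mouse 3, was below the highest value of the other T cells, in WT mouse 1, although every mouse was higher within its own gate.

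Slamf6, a receptor of precursor-exhausted and stem-like T cells, was 228 ± 111 against 34 ± 20.2 CPM. It was higher in 7 of 8 mice, the exception being WT mouse 1, whose 8 gated cells gave 69.6 CPM against 80.4. The gated values of the other WT mice were 185, 209 and 158 CPM and those of the CaMKK2 KO mice 307, 288, 173 and 432, all above the highest value in other T cells. Emb, a membrane glycoprotein that partners monocarboxylate transporters, was 696 ± 273 against 198 ± 122 CPM and was likewise higher in all mice but WT mouse 1. Ccr7, the receptor for lymph node homing, was 169.7 ± 106 against 45.8 ± 59.5 CPM, higher in 8 of 8 mice. Its gated values ran from 31.8 CPM in CaMKK2 KO mouse 3 to 271 in CaMKK2 KO mouse 2, and the other T cells of CaMKK2 KO mouse 4 reached 192.

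By the ratio of mean CPM with 10 CPM added to each side, the leading genes outside the rule that were higher in all 8 mice were Tnfsf8 (5.37-fold), Klf3 (4.65-fold), Cmah (3.94-fold), Klf2 (3.69-fold), Ccr7 (3.22-fold), Gramd3 (3.16-fold) and Rasgrp2 (3.12-fold). Tnfsf8 encodes CD30 ligand and Rasgrp2 an activator of Rap1 in integrin adhesion. Adk, Sidt1, Ripor2, Satb1, Bach2, Dennd2d, Arhgap5 and Pik3ip1 followed, between 2.87- and 2.47-fold. Satb1 is a chromatin organizer of T cells, and Bach2 is a repressor that restrains effector differentiation. Of 7751 genes outside the rule with 200 or more UMIs over all T cells, 212 (2.74%) were higher in the gated cells in all 8 mice and 344 (4.44%) were lower. With each mouse left out in turn, which leaves fewer mice to agree, 227 to 330 were higher in every remaining mouse. The 330 were without WT mouse 1, with its 8 gated cells. With 4 or more UMIs of Tcf7, Lef1 and S1pr1, 107 were higher in all 8 mice.

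Among the genes lower in the gated cells of every mouse were Ccl1, Prf1, Ifng and Havcr2. The rule put T cells with 3 or more UMIs of Gzmc and Gzmf outside the gate, and its part in these differences was not tested. Ccl1, a chemokine of activated T cells, was 2.97 ± 4.15 against 84.7 ± 68 CPM and was lower in 8 of 8 mice. Prf1, which encodes perforin, was 58.2 ± 52.7 against 271 ± 101 CPM, Ifng, which encodes interferon gamma, was 68.2 ± 50.9 against 286 ± 122 CPM, and Havcr2, which encodes the checkpoint receptor TIM-3, was 19.5 ± 24.1 against 102 ± 20.4 CPM, each lower in 8 of 8 mice. The remaining leading genes were AA467197, Mt1, Il2ra, Tnfrsf9, Itgav, Itih5, Mt2, Rgs16, Gm36723, Cd8a and 2900026A02Rik, between 4.49- and 3.47-fold lower by the same ratio. Itih5, Mt2 and 2900026A02Rik averaged 4.65, 6 and 5.04 CPM in the gated cells against 45.5, 49.4 and 42.2 CPM. These levels outside the gate lie under the 52.2 CPM that a count of 0 allows in WT mouse 1. A count of 0 there would not show a lower level, and the ratios of these genes depend on the 10 CPM added. Il2ra and Tnfrsf9, which encode CD25 and 4-1BB, are also high in regulatory T cells, which the gate removed by their Foxp3 UMIs. Gzmb, which encodes granzyme B, was 319 ± 82.9 against 1741 ± 1243 CPM and was lower in 7 of 8 mice, WT mouse 1 again being the exception.

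**Figure D1:**
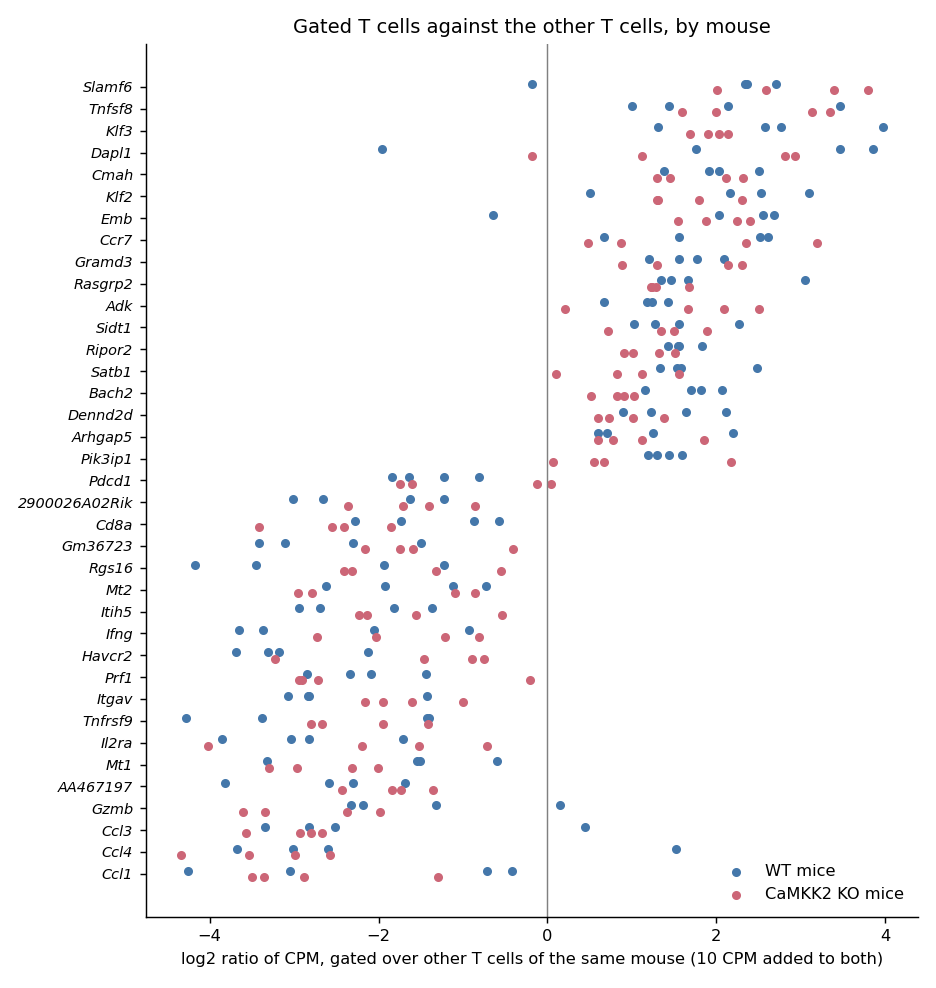
Ratio of CPM in the gated T cells to CPM in the other T cells of the same mouse on a log2 scale, with 10 CPM added to both, for the leading genes and some named genes. Each point is 1 mouse, and points right of the line at 0 are higher in the gated cells. The points of Klf2, Klf3 and Tnfsf8 lie right of 0 in all 8 mice and those of Prf1, Ifng and Havcr2 lie left of it, while 1 WT mouse, mouse 1, lies on the opposite side from the others for Slamf6, Emb, Gzmb, Ccl3 and Ccl4.

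The gene lists are given by counts and medians, with no test, beside the 2.74% higher and 4.44% lower in all 8 mice over all genes. Of 24 naive and homing genes with 200 or more UMIs, 11 were higher in the gated cells in all 8 mice and 0 were lower, with a median log2 ratio of 0.89 against -0.01 over all genes. The 11 included Foxp1, Txnip, Nsg2, Btg2, Bcl2 and Ets1, and Ltb, Itgal and Cd44 were higher in fewer than 5 mice. The 9 precursor-exhausted genes divided, since Cd28, the costimulatory receptor, and Cxcr3, the receptor for Cxcl9 and Cxcl10, were higher in all 8 mice, and Il2rb, a chain of the interleukin 2 receptor, was lower in all 8. Of 17 checkpoint and exhaustion genes, 0 were higher and 5 lower in all 8 mice, with a median log2 ratio of -0.84. Pdcd1, which encodes PD-1, was 130.3 ± 63 against 272 ± 47.7 CPM, lower in 7 of 8 mice, so the gated cells had a lower level of it and were not without it. Of 15 cytotoxic effector genes, 4 were lower in all 8 mice and 0 higher, with a median log2 ratio of -1.22. The rule put T cells with 3 or more UMIs of Gzmc and Gzmf outside the gate. Of those, 94.8% had a Gzmb UMI, 92.7% a Lag3 UMI and 74% a Havcr2 UMI. The checkpoint and cytotoxic counts therefore follow in part from the rule, and how large a part was not tested. Of the 6 regulatory genes 5 were lower in all 8 mice. This count follows from the rule, which put every T cell with a Foxp3 UMI outside the gate. Of 12 cell cycle genes 3 were lower, and 1 of 12 T-cell receptor signalling genes was higher. Of 5 tissue retention genes, 1 was higher in all 8 mice, Cd69, an antagonist of S1pr1 at the cell surface, at 309 ± 74.7 against 219 ± 77.3 CPM, and 1 was lower. The interferon response list had 1 gene of 19 higher and 1 lower in all 8 mice. Counts of 1 gene, here and in the signalling and retention lists, are too small to tell from those shares. Of 11 MHC class I genes 5 were lower, B2m among them.

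Markers of other cells were present in the gated cells, those of macrophages and monocytes most. Of 6 B-cell markers the most abundant was Ighm, at 79.1 ± 33.6 CPM. Of 5 natural killer (NK) cell markers the most abundant was Klre1, at 62 ± 50.6 CPM, and Klra8 had UMIs in 1 of 8 mice. The 11 macrophage and monocyte markers all had at least 1 UMI and summed to between 1025 CPM in WT mouse 4 and 6112 in CaMKK2 KO mouse 3. They were led by Cd74, which encodes the MHC class II invariant chain, at 932 ± 866 CPM, while Adgre1, which encodes F4/80, had 3 UMIs in all. The neutrophil list led with S100a8 at 1.22 CPM, and of the tumor and glial list only Mbp, at 91 ± 40.8 CPM, passed 3 CPM, with Gfap, Olig1 and Sparcl1 at 0. Of the 6 dendritic cell markers Xcr1 had no UMI, and the list summed to 400.3 CPM over the 8 cells of WT mouse 1 and to 0 in the other WT mice. The part of these transcripts in the results below was not tested except where a value is given.

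The gated cells were of several T-cell lineages. By coreceptor UMIs, which the rule did not use, 96 of the 231 cells were CD4-type (Cd4 and neither Cd8a nor Cd8b1), 59 were CD8-type (Cd8a or Cd8b1 and no Cd4), 17 had both and 59 had neither. A Cd4 UMI was found in 48.9% of gated cells, against 0.312% of B cells and 2.14% of macrophages, which had median depths of 4254 and 16110 UMIs against 6578 in the gated cells. A Cd8a UMI was found in 25.1%, against 1.25% and 3.05%. With every cell thinned to 4000 UMIs, which left out 29 gated cells of lower depth, the shares were 39.1% for Cd4 and 23.3% for Cd8a. Cd4 is a low transcript and can be missed, and the cells with neither coreceptor had a median depth of 5507 UMIs against 7382 in the CD4-type.

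The classes differed in their other genes. These are levels in cells summed over mice, with no test and with exact Poisson intervals that cover counting error only. The pooled classes differ in genotype, since 39 of 59 CD8-type cells came from WT mice and 76 of 96 CD4-type cells from CaMKK2 KO mice, so values are given within genotype where the pooled comparison did not hold in both. CD8-type cells had 174 CPM (95% interval 142 to 211) of Dapl1, a gene of naive CD8 T cells, against 12 CPM (95% interval 5.98 to 21.4) in CD4-type cells, and 106 CPM (95% interval 81 to 135) of Xcl1, a chemokine for cross-presenting dendritic cells, of which the CD4-type cells had no UMI. CD4-type cells had 268 CPM (95% interval 236 to 304) of Tnfsf8 against 27.3 CPM (95% interval 15.6 to 44.3) in CD8-type cells, and 355 CPM (95% interval 318 to 396) of Slamf6 against 141 CPM (95% interval 113 to 175). The intervals of these 4 genes were also apart within each genotype.

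For other genes the pooled levels of the classes compared differently in WT and in CaMKK2 KO cells. Such levels describe the cells found and are no test of genotype. Cells are not replicates, and values per mouse are not given for these classes. CaMKK2 KO mouse 2 alone gave 40 of the 76 CD4-type and 10 of the 20 CD8-type CaMKK2 KO cells. Gzmb was 1485 CPM (1317 to 1667) in CD8-type and 101 CPM (80.1 to 126) in CD4-type cells of the CaMKK2 KO mice, but 344 CPM (289 to 407) and 618 CPM (489 to 771) in those of the WT mice, where the order was the opposite. Cd200, an inhibitory ligand found on follicular helper cells, was 273 CPM (238 to 312) in CD4-type and 78.1 CPM (43.7 to 129) in CD8-type CaMKK2 KO cells, and 39.6 CPM (12.9 to 92.5) and 30.4 CPM (15.7 to 53.1) in WT cells, with overlapping intervals. Cd40lg, which encodes the ligand that helper cells show to CD40, was 82.1 CPM (63.3 to 105) in CD4-type CaMKK2 KO cells, with no UMI in the CD8-type, and 15.8 CPM (1.92 to 57.2) and 10.1 CPM (2.76 to 25.9) in WT cells, again overlapping. Ccr7 was 280.3 CPM (245 to 319.7) and 250.1 CPM (184 to 332) in CD4-type and CD8-type CaMKK2 KO cells, which overlapped, and 55.5 CPM (22.3 to 114) and 284 CPM (233 to 341) in WT cells, which did not. The CD4-type WT values rest on 20 cells.

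The CD4-type cells also had the most of Lyz2, which encodes lysozyme of macrophages and monocytes, at 1068 CPM against 100.5 in the CD8-type, 86.3 in the cells with both coreceptors and 134 in those with neither. It was 1664 CPM in CD4-type WT and 974 in CD4-type CaMKK2 KO cells. Cxcl10 was 364 CPM in CD4-type cells against 66.4, 35.3 and 60.9 in the same order. In CaMKK2 KO cells alone it was 413 CPM (369 to 460.2) in the CD4-type against 156 CPM (105 to 223) in the CD8-type, while in WT cells the values were 55.5 CPM (22.3 to 114) and 22.8 CPM (10.4 to 43.2), with overlapping intervals. The part of RNA from macrophages and monocytes in the levels of the CD4-type cells was not tested.

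The gamma-delta T-cell genes were highest in the cells with neither coreceptor. Trdc, the constant segment of the T-cell receptor delta chain, was 655 CPM (95% interval 570.0 to 748) there, had no UMI in the CD8-type cells and stood at 12 CPM in the CD4-type cells, and 20 of the 22 gated cells with a Trdc UMI had neither coreceptor. Trgc1, a gamma chain constant gene, was 283 CPM (95% interval 228 to 347) against 20.4 and 17.4 CPM in the CD8-type and CD4-type. Cd163l1, known from gamma-delta T cells, was 168 CPM (95% interval 126 to 218) against 0 and 7.62 CPM. These cells also had the highest level of Il7r, the interleukin 7 receptor, at 1215 CPM against 543 in CD8-type and 437 in CD4-type cells, and of Bcl2, the survival factor, at 1005 CPM against 559 and 228. Klf2 was 801 CPM against 400.3 and 341. Mki67, the proliferation gene, was 641 CPM (533 to 764) in the 12 CaMKK2 KO cells with both coreceptors, above the 88.6, 99.8 and 22 CPM of the CD8-type, the CD4-type and the cells with neither. Of these 12 cells, 7 came from CaMKK2 KO mouse 2. In the 5 WT cells with both it was 65 CPM (17.7 to 166), against 144 CPM (109 to 187) in the CD8-type, with overlapping intervals. The median depth of the cells with both coreceptors was 11580 UMIs in CaMKK2 KO mice, against 8483 in the CD8-type, and 5674 in WT mice, against 8053.

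**Figure D2:**
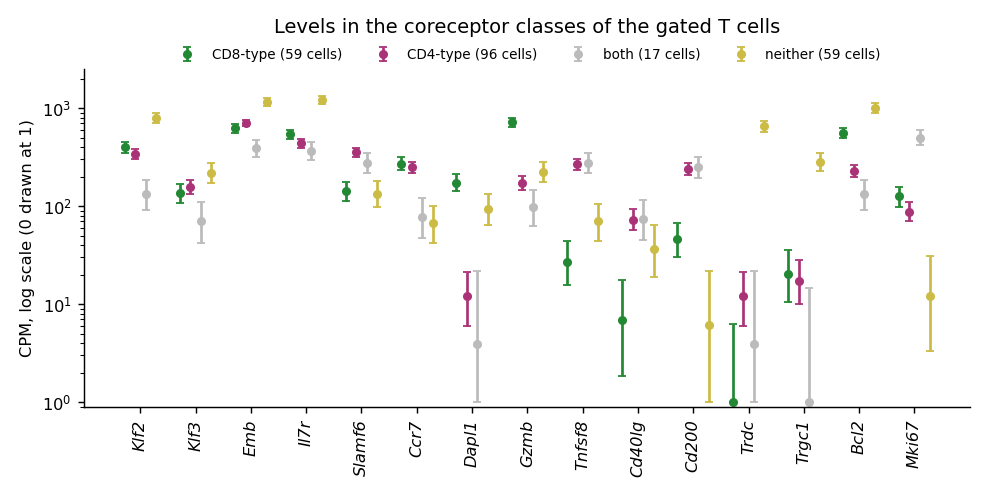
CPM on a log axis in the gated T cells of the 4 coreceptor classes, summed over mice and genotypes, with exact 95% Poisson intervals and values of 0 drawn at 1. Trdc and Trgc1 stand highest in the cells with neither coreceptor and Dapl1 in the CD8-type, in both genotypes. The pooled orders of Gzmb and Mki67 did not hold in WT cells alone, and the intervals of Cd200 and Cd40lg overlapped there between CD4-type and CD8-type cells.

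Transcripts of homing and of checkpoint receptors were both found in the gate. A Pdcd1 UMI was found in 35.9% of gated cells (25.2% thinned), against 70.3% of the remaining Tcf7-low T cells (58% thinned) and 3.19% of macrophages. A Ccr7 UMI was found in 34.2% (26.7% thinned), against 5.50% (3.14% thinned) and 1.43%. Slamf6 UMIs were found in 60.6% of gated (45.5% thinned), 11.4% of Tcf7-low (7.01% thinned) and 32.3% of Foxp3+ T cells (20.1% thinned), and also in 44.4% of B cells (38.2% thinned) and 37.8% of macrophages (12.5% thinned). Havcr2, the marker of terminal exhaustion, was detected in 8.66% of gated cells (7.92% thinned). It was detected in 46.5% of Tcf7-low (30% thinned) and 28.2% of Foxp3+ T cells (19.1% thinned). The share was 74% in the T cells high in Gzmc and Gzmf, whose median depth was 16900 UMIs (38.2% thinned). Macrophages, which express it themselves, had a Havcr2 UMI in 71.4% (31% thinned).

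The comparison between genotypes asked whether host CaMKK2 changed the number or the state of these cells. The targeted gene came first. Camkk2 had 16 UMIs in the gated cells of the WT mice and 10 in those of the CaMKK2 KO mice, too few for a test at 200 UMIs. In WT mice 1 to 4 it was 104, 11.2, 16 and 13.2 CPM and in CaMKK2 KO mice 1 to 4 12.3, 8.33, 0 and 9.50, and in the other T cells it averaged 6.71 ± 4.74 and 7.03 ± 3.18 CPM. The 104 CPM of WT mouse 1 came from 6 UMIs. Macrophages, with 1095 UMIs of it in WT and 303 in CaMKK2 KO mice, had 28.7 ± 2.02 CPM in WT and 13.1 ± 3.36 in CaMKK2 KO mice, with no overlap. The assay reads the 3′ end of transcripts, and a tag outside the deleted part of the gene checks nothing, so the levels in T cells are no check of the genotype.

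No difference between the genotypes was detected in the share of T cells that were gated, and the spread was wide in the CaMKK2 KO mice. They were 18.2, 11.2, 14.3 and 14.1% of the T cells of WT mice 1 to 4, and 6.72, 24.1, 6.01 and 17.7% in CaMKK2 KO mice 1 to 4. The means were 14.4% ± 2.86 and 13.6% ± 8.81 (two-sided exact permutation test, n = 4 per genotype, p = 0.857). Of all barcodes that passed the gene and mitochondrial limits, they were 1.71% ± 0.738 and 2.10% ± 1.1 (exact permutation test, n = 4, p = 0.629). Equal parts of the sorted cells of each mouse were pooled before loading, so these shares do not measure how many cells a tumor held.

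The coreceptor classes of the gate differed more between the genotypes. CD4-type cells were 12.5, 26.1, 20.0 and 18.2% of the gated cells of WT mice 1 to 4 and 64.7, 62.5, 31.8 and 62.1% of those of CaMKK2 KO mice 1 to 4. Every CaMKK2 KO mouse was above every WT mouse, and CaMKK2 KO mouse 3 was closest to WT. CD8-type cells were 37.5, 30.4, 45.7 and 39.4% in WT and 29.4, 15.6, 9.09 and 10.3% in CaMKK2 KO mice, and here every CaMKK2 KO mouse was below every WT mouse. The means were 19.2% ± 5.60 and 55.3% ± 15.7 for CD4-type cells, and 38.3% ± 6.29 and 16.1% ± 9.30 for CD8-type cells. Each gave p = 0.0286 in the two-sided exact permutation test, the smallest value that 4 mice against 4 can give, and 0.143 after adjustment over 10 share tests, so neither passed the threshold of 0.05. Full separation of the mice in these classes alone could not have passed it, so the adjusted values cannot decide the question. Cells with both coreceptors were 4.36% ± 3.71 and 8.14% ± 8.10, and cells with neither 38.2% ± 9.04 and 20.5% ± 15.7 (exact permutation test, n = 4, p = 0.486 and 0.143, adjusted 0.607 and 0.286). Median depth was 6147 UMIs per gated cell in WT and 7459 in CaMKK2 KO mice. With barcodes thinned to 4000 UMIs before the gate, which left 71 WT and 75 CaMKK2 KO cells, the CD4-type shares were 0, 28.6, 9.52 and 17.9% in WT and 54.5, 62.5, 14.3 and 41.2% in CaMKK2 KO mice, with means of 14% and 43.1%, and the genotypes then overlapped in CaMKK2 KO mouse 3 (exact permutation test, n = 4, unadjusted p = 0.0857). That overlap rests on few cells, since CaMKK2 KO mouse 3 then had 7 gated cells, 1 of them CD4-type. The thinned CD8-type shares were 50, 21.4, 47.6 and 39.3% and 36.4, 12.5, 14.3 and 11.8%, and overlapped as well (exact permutation test, n = 4, unadjusted p = 0.0571). In the cells with 4 or more UMIs of Tcf7, Lef1 and S1pr1 the CD4-type difference was 33.2 percentage points and the CD8-type difference -5.99, against 36.1 and -22.1 in all gated cells (exact permutation test, n = 4, unadjusted p = 0.0286 and 0.686).

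In the other T cells of the same mice the CD4-type and CD8-type means differed in the same direction, and the tests did not pass. Their CD4-type share was 18.3% ± 5.43 in WT and 33.9% ± 8.73 in CaMKK2 KO mice, and their CD8-type share 59% ± 12.2 and 39.1% ± 13 (two-sided exact permutation test, n = 4, p = 0.0571 for both, 0.114 adjusted over 4 classes). The genotype difference in the CD4-type share was 20.5 percentage points larger in the gate than outside it, and in the CD8-type share 2.26 points larger in size, neither of which passed (exact permutation test, n = 4, p = 0.143 and 0.771, adjusted 0.286 and 0.857). Cells with neither coreceptor made up 19.6% ± 7.47 of the WT and 21.1% ± 4.78 of the CaMKK2 KO cells outside the gate, which differ by 1.47 points against -17.7 in the gate, and cells with both differed by 2.81 points there. The gap between gate and outside was -19.2 points for cells with neither and 0.975 for cells with both (exact permutation test, n = 4, adjusted p = 0.286 and 0.857). The shift in coreceptor classes was therefore not shown to be particular to the gated cells.

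**Figure D3:**
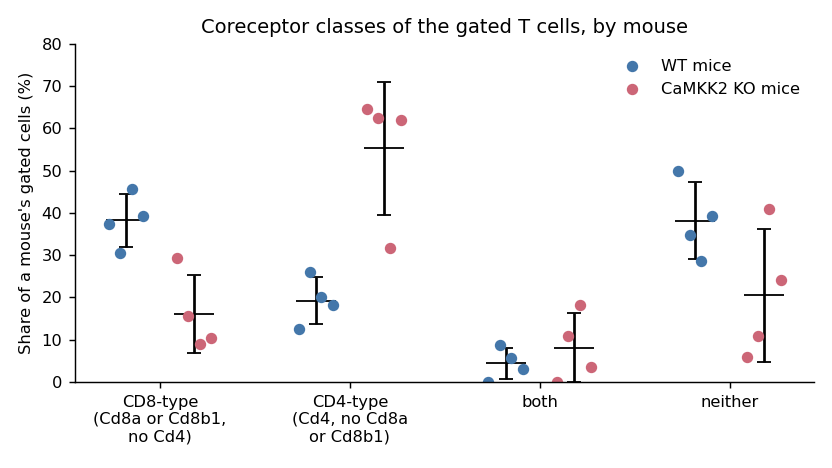
Share of each mouse's gated T cells in the 4 coreceptor classes, with points for mice and black marks for the mean and SD of 4 mice per genotype. CD4-type shares lie between 12.5% and 26.1% in WT and between 31.8% and 64.7% in CaMKK2 KO mice, and CD8-type shares lie lower in every CaMKK2 KO mouse.

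Gene levels in the gated cells were compared on UMIs summed per mouse with edgeR's quasi-likelihood test and Benjamini-Hochberg adjustment over all genes tested. Of 1543 genes with 200 or more UMIs, 12 (0.778%) rose and 25 (1.62%) fell in the knockout at an adjusted p under the threshold of 0.05, 37 (2.4%) in all. In each of the 37 the 4 WT and 4 CaMKK2 KO mice did not overlap, which held for 12.4% of all genes tested. The count depended on single mice. It was 19, 8, 85 and 4 without WT mouse 1, 2, 3 or 4, and 8, 3, 9 and 15 without CaMKK2 KO mouse 1, 2, 3 or 4, and it was 0 in the 119 cells with 4 or more UMIs of Tcf7, Lef1 and S1pr1. In those 119 cells only 721 genes reached the minimum, and WT mouse 1 gave 3 cells and CaMKK2 KO mouse 3 gave 5. A count of 0 there does not show that the genotypes were alike.

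Cd4 and Cd200 were higher and Cd8a and Cd8b1 lower in the CaMKK2 KO mice. Of the helper T-cell list 4 genes were tested, Cd4, Gata3, Tnfrsf4 and Tnfrsf18. Cd4 rose and 0 fell, beside 0.778% called higher and 1.62% called lower over all genes tested. The median log2 fold change of the list was 1.22, against 0.10 over all genes tested. Cd4 was 17.4, 134, 61 and 48.4 CPM in WT mice 1 to 4 and 264, 250, 273 and 218 in CaMKK2 KO mice 1 to 4 (log2 fold change 1.81, SE 0.33, adjusted p = 0.0249 by edgeR). Cd200 was 17.4, 28, 67.4 and 4.40 CPM in WT and 141, 238, 264 and 162 CPM in CaMKK2 KO mice (log2 fold change 2.56, SE 0.47, adjusted p = 0.0249). Its log2 fold change ran from 2.13 to 3.70 with each mouse left out. On the other side, Cd8a was 226, 168, 401 and 180.3 CPM in WT and 73.6, 86.1, 77.3 and 90.2 in CaMKK2 KO mice (log2 fold change -1.60, SE 0.30, adjusted p = 0.0249), and Cd8b1 fell by 1.61 on the log2 scale. These 3 coreceptor genes restate the change in coreceptor classes above. Within the CD4-type cells alone, in which 613 genes could be tested and the WT mice gave 1, 6, 7 and 6 cells with 5 Cd200 UMIs in all, Cd200 was still called, with a log2 fold change of 2.7 and an adjusted p of 0.0352 by edgeR, and so was Aldoa, a glycolytic enzyme, at 1.69 (adjusted p = 0.0352). Over all gated cells Aldoa was 362 ± 56.5 CPM in WT and 691 ± 148 in CaMKK2 KO mice (log2 fold change 0.93, SE 0.19, adjusted p = 0.038), but in the CD8-type cells alone its direction turned, with a log2 fold change of -0.48 that was not called.

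Cxcl10, a ligand of Cxcr3, was 17.4, 33.6, 35.3 and 22 CPM in WT mice 1 to 4 and 141, 353, 50 and 432 in CaMKK2 KO mice 1 to 4 (log2 fold change 3.08, SE 0.63, adjusted p = 0.0317). CaMKK2 KO mouse 3 stood near the WT mice and the other 3 well above. Macrophages had 471 and 685 CPM of it. The summed level of the 11 macrophage and monocyte markers in the gated cells was 1775, 1142, 4525 and 1025 CPM in WT and 4648, 1679, 6112 and 3999 in CaMKK2 KO mice, with Cd74 the most abundant, and the groups overlapped. Of these markers 7 were tested, 0 were called higher and Apoe was called lower, beside 0.778% called higher and 1.62% lower over all genes tested. Their median log2 fold change was 1.21, against 0.10 over all genes. The mean of Cd74 was 527 CPM in WT and 1338 in CaMKK2 KO mice, and those of the MHC class II genes H2-Aa, H2-Ab1 and H2-Eb1 were 170.0, 142 and 136 CPM and 557, 694 and 603 CPM, none of which passed the test. The other markers went both ways. Means were higher in CaMKK2 KO mice for Lyz2 (330 and 478 CPM), Fcgr3 (22 and 47.2) and Adgre1 (0 and 2.23). They were lower for Ctss (350 and 297), Csf1r (37.8 and 29.4), Cd68 (15.3 and 13.5) and Apoe. With the barcodes of 3 or more C1q UMIs left out, the Cxcl10 difference was 3.35 (edgeR, adjusted p = 0.0261), and in CD4-type cells alone it was 2.43 and not called (adjusted p = 0.348). The part of RNA from other cells in the rest was not tested.

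The MHC class I genes B2m, H2-K1 and H2-D1 rose, 3 of 10 tested genes of the list, and 0 fell, beside 0.778% called higher over all genes tested. B2m, the light chain, was 2088, 2559, 2798 and 2735 CPM in WT and 3937, 3423, 3127 and 3909 in CaMKK2 KO mice (log2 fold change 0.49, SE 0.11, adjusted p = 0.0405). H2-K1 and H2-D1, the classical heavy chains, had log2 fold changes of 0.49 and 0.50, and the median over the 10 genes was 0.43 against 0.10 over all genes tested. None of the 3 was called with TMM scaling, under which the log2 fold change of B2m was 0.39 (adjusted p = 0.0861). With C1q under 3 UMIs H2-K1 was not called either (edgeR, adjusted p = 0.0757). Of 21 alternatives, B2m was called in 9, H2-K1 in 9 and H2-D1 in 6. The H2 genes are near-identical in parts, and reads could be split between them. Psme2, a proteasome activator subunit induced by interferon, was 256 ± 36.6 and 457 ± 56.7 CPM (log2 fold change 0.82, SE 0.17, adjusted p = 0.0393). Ly6a, which encodes Sca-1, was 191, 605, 658 and 251 and 1337, 1213, 968 and 1415 CPM (log2 fold change 1.46, SE 0.32, adjusted p = 0.0393), the only call among 14 tested genes of the interferon response list, whose median was 0.39. Its genotypes did not overlap in the other T cells (566 and 1450.0 CPM), in B cells (534 and 1260.0) or in macrophages (457 and 1697) either. B2m and H2-D1 were without overlap in the other T cells and in macrophages and H2-K1 in macrophages, and B2m averaged 3308 and 4411 CPM in the other T cells. Rgs1, which dampens chemokine receptor signalling and is high in tissue-retained T cells, was 418, 314, 385 and 506 and 619, 750.1, 699.9 and 774 CPM (log2 fold change 0.81, SE 0.17, adjusted p = 0.0393), but it was not called with TMM scaling (edgeR, adjusted p = 0.057) or with C1q under 3 UMIs (0.0895), and was called in 5 of 21 alternatives. Cd69, of the same list, was not called (log2 fold change -0.04, adjusted p = 0.978).

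Wls and Gm8797 rose in the gated and in the other T cells, and in B cells and macrophages, where they were not tested, the genotypes did not overlap. Wls, which carries Wnt ligands to the cell surface (chr3:159839672-159938664, mm10), was 34.8, 33.6, 22.5 and 57.2 CPM in WT and 178, 146, 254 and 176 in CaMKK2 KO mice (log2 fold change 2.33, SE 0.32, adjusted p = 0.00377). It was 51.3 and 297 CPM in the other T cells, 26.2 and 105 in B cells and 53.4 and 114 in macrophages. Gm8797, a predicted gene (chr3:5750806-5751295), was 34.8, 5.60, 6.42 and 4.40 and 129, 197, 150.0 and 242 CPM (log2 fold change 4.44, SE 0.45, adjusted p = 0.000782), and 6.97 and 180.0 CPM in macrophages. The 34.8 CPM of WT mouse 1 stood apart from the other WT mice. A predicted gene with a close copy elsewhere can take that copy's reads, so its level is uncertain.

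Of the 8 genes lower in CaMKK2 KO mice that do not encode ribosomal proteins, 6 were called in the gated cells and not in the other T cells, namely Cd8a and Cd8b1, given above, and Smad7, Slc38a2, Atp11b and Arid1a. Smad7, an inhibitor of TGF-beta signalling, was 469.9, 274, 318 and 470.5 CPM in WT and 85.8, 175, 164 and 176 in CaMKK2 KO mice (log2 fold change -1.28, SE 0.26, adjusted p = 0.0317). In the other T cells it was 228, 178, 226 and 249.9 and 154, 147, 157 and 178 CPM, a log2 difference of -0.47 (edgeR, adjusted p = 0.0761). In gated cells summed by coreceptor class, Smad7 was 210 CPM (167 to 260) in WT and 188 (131 to 260) in CaMKK2 KO CD8-type cells. It was 483 CPM (370 to 621) and 120 (97 to 147) in the CD4-type. In cells with neither it was 598 CPM (494 to 718) and 323 (235 to 434). The part of the coreceptor classes in its difference was not tested. Slc38a2, a transporter of neutral amino acids, was 327 ± 77.5 and 151 ± 6.48 CPM (log2 fold change -1.05, SE 0.20, adjusted p = 0.0249). Atp11b, a lipid flippase, and Arid1a, a subunit of the SWI/SNF chromatin remodeler, fell by 1.24 and 0.89 on the log2 scale. Arid1a was called in 4 and not called in 12 of the alternatives in which it was tested. Outside the gate Slc38a2 averaged 251 CPM in the WT and 197 in the CaMKK2 KO T cells and Atp11b 186 and 103, and for these and Smad7 the genotypes did not overlap there either, while for Arid1a they did (128 and 108 CPM). Slc38a2 was also without overlap in B cells, at 444 and 331 CPM, and in macrophages, at 162 and 128 CPM. A difference between gated and other T cells was not shown for any of these, since no gene passed the test of that difference. Apoe, the lipid carrier, was 366, 381, 411 and 391 CPM in WT and 0, 18.1, 159 and 23.8 in CaMKK2 KO mice (log2 fold change -3.06, SE 0.62, adjusted p = 0.0317). Its log2 fold change ran from -4.56 to -2.58 with each mouse left out. Apoe was called in 12 and not called in 7 of 21 alternatives. It was 28540.0 and 2273 CPM in macrophages and 1590.0 and 429 in B cells, and the part of RNA from macrophages in its level in T cells was not tested. Gm47283, a predicted gene of the Y chromosome (chrY:90784738-90816464), was 247 ± 52 and 28.8 ± 18.3 CPM (log2 fold change -3.17, SE 0.36, adjusted p = 0.00149), and 134 and 21.1 in macrophages. The paper reports that its experiments used female mice. Reads assigned to Gm47283 need therefore not come from the Y chromosome, and its level is uncertain.

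**Figure D4:**
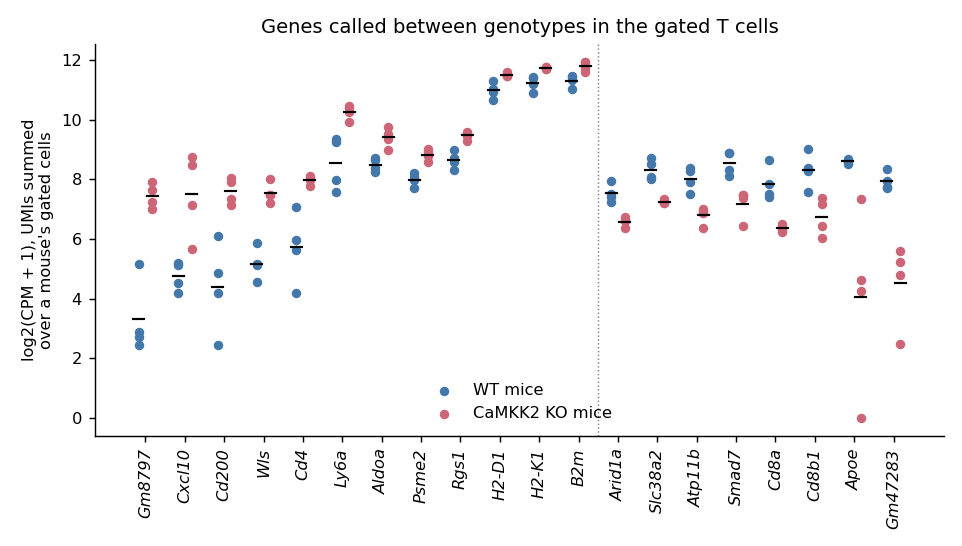
log2(CPM + 1) in the gated T cells of each mouse for the 20 called genes that do not encode ribosomal proteins, with black lines at the mean of 4 mice. The 12 genes left of the dotted line are higher in every CaMKK2 KO mouse than in any WT mouse, and the 8 right of it are lower.

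The other 17 genes that fell were ribosomal protein genes, a group noted after the values were seen. Of 76 ribosomal protein genes tested, 17 fell, beside 1.62% called lower over all genes tested, 0 rose and 73 had a log2 fold change below 0, with a median of -0.26 against 0.10 over all genes. Their UMIs made up 29.4, 29.4, 28.5 and 31.6% of all UMIs in the gated cells of WT mice 1 to 4 and 24.7, 23.3, 25.1 and 25.3% in CaMKK2 KO mice 1 to 4, with no overlap. In the other T cells the shares were 28.6 ± 1.56% and 22.2 ± 2.28%, also without overlap, where 3 of these genes were called and their median log2 fold change was -0.36, and in B cells they were 28.6 ± 0.857% and 27.5 ± 2.25% and overlapped. Rpl21, a subunit of the large ribosomal subunit, had the lowest fold change of the group (log2 fold change -0.62, SE 0.08, adjusted p = 0.00377), followed by Rps3a1 of the small subunit (log2 fold change -0.59, SE 0.08, adjusted p = 0.00377). Both lie among near-identical pseudogene copies, and their counts are uncertain in that respect. With TMM scaling, which moved the median of all genes to 0.00132, 30 of the genes fell and their median was -0.37.

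The ribosomal share was also summed by coreceptor class. In WT mice it was 31.9% of the UMIs summed over the 39 CD8-type cells and 23.7% over the 20 CD4-type cells. In CaMKK2 KO mice it was 25.1% over 20 CD8-type and 24.4% over 76 CD4-type cells. Over the cells with neither coreceptor it was 30.4% in WT and 24.5% in CaMKK2 KO mice. These sums have no test, and the medians over the cells of a mouse overlapped between the genotypes, from 29.4% to 35.5% in WT and from 23.7% to 33.7% in CaMKK2 KO mice for CD8-type cells, from 20.0% to 32.3% and from 23.8% to 25.4% for CD4-type cells, and from 26.7% to 36.5% and from 17.3% to 27.6% for those with neither. Tested on CD4-type cells alone, 0 genes fell, and Rps18, Rps20, Rpl35, Rps19, Rpl36a, Rpl23, Rps4x and Rpl39 had log2 fold changes above 0, up to 0.28, none of them called. The other 9 of the 17 stayed below 0, down to -0.47 for Rps27 and -0.34 for Rpl21, and were not called either. On CD8-type cells alone all 17 were below 0, and Rpl21, Rps3a1 and Rps4x were called, with log2 fold changes of -0.82, -0.71 and -0.52.

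**Figure D5:**
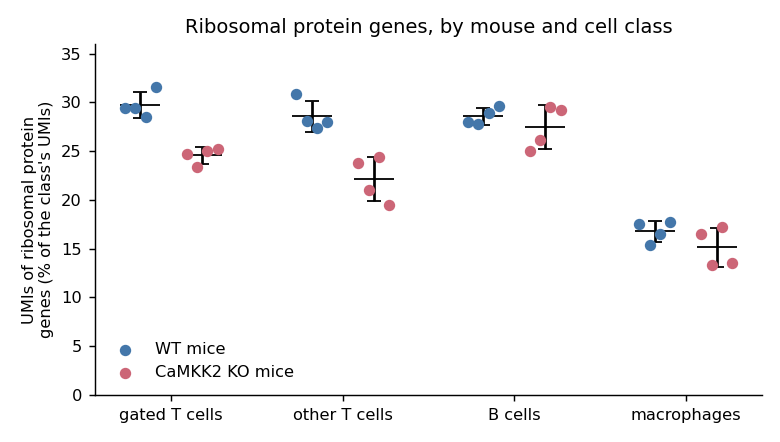
Share of UMIs from ribosomal protein genes, in percent of the UMIs of a class, for the mice of both genotypes in gated T cells, other T cells, B cells and macrophages. Black marks give the mean and SD of 4 mice, and the genotypes do not overlap in the gated and the other T cells.

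The naive and homing genes had no call between genotypes, and neither had the 6 further lists named here, at a share of 2.4% called over all genes tested, and 0 calls in lists of this size is near that share. Of 17 tested naive and homing genes, 0 were called in either direction, with a median log2 fold change of -0.10 against 0.10 over all genes tested. Klf2 had a log2 fold change of -0.60 (SE 0.33, adjusted p = 0.39 by edgeR), Klf3 of -0.57 (SE 0.26, adjusted p = 0.291) and Ccr7 of -0.05 (SE 0.54, adjusted p = 0.981). Slamf6 was 155 ± 60.7 CPM in WT and 299.8 ± 106 in CaMKK2 KO mice, with a log2 fold change of 0.82 that was not called (SE 0.30, adjusted p = 0.178). Pdcd1 and Lag3 had log2 fold changes of 0.32 and 1.1 (adjusted p = 0.722 and 0.409 by edgeR), and 0 of 6 tested checkpoint and exhaustion genes were called. The same held for 6 precursor-exhausted, 8 cytotoxic effector, 10 immediate early, 5 cell cycle and 10 T-cell receptor signalling genes. The 15 genes of the CaMKK2 pathway were all under 200 UMIs in the gated cells and could not be tested there.

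In the other T cells 68 of 7480 genes (0.909%) rose and 31 (0.414%) fell by the same test. Of the 37 genes called in the gated cells, 8 were called there as well (Gm8797, Wls, Cd4, Cd200, Gm47283, Apoe, Rpl21 and Rps3a1), in different cells of the same mice and the same channels, so the comparisons are not independent. In a model over both classes with the mouse as a block, 0 of 7764 genes had a genotype difference that differed between gated and other T cells, that is 0% called by edgeR, with 428 at an unadjusted p under 0.05, and DESeq2 called 0, with 264 at an unadjusted p under 0.05. Other settings called some, 76 without a count filter, 3 with a minimum of 50 UMIs, 2 without the top Scrublet scores, 1 with 4 or more stem gene UMIs and 1 without WT mouse 4. Cd8b1 had one of the larger unadjusted differences, with log2 fold changes of -1.61 in the gated and -0.28 in the other T cells, and an adjusted p of 0.399 by edgeR for the interaction. The genotype differences of the gated cells were thus not shown to differ from those of the remaining T cells for any gene at the minimum of 200 UMIs in all cells.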

How the data were processed

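Live CD45+ cells of CT2a gliomas from 4 WT and 4 CaMKK2 KO mice were profiled by 10X Genomics 3′ v3.1 chemistry with hashtag antibodies. The authors deposited raw UMI counts per gene and barcode, which the sources attribute to bcl2fastq 2.20, Cell Ranger 4.0.0 and STAR 2.7.5c on mm10. Genes with near-identical copies can share reads in such counts.

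From the deposited counts, barcodes were assigned to mice with HTODemux (Seurat 5.3.0, quantile 0.99), and hashtag doublets and negatives were left out. Doublets within 1 mouse were not removed in the reported values, and an alternative left out the highest Scrublet scores (scanpy 1.11.5, 0.8% per 1000 barcodes). The gate was applied to raw UMIs. UMIs were summed per mouse and class. Genes with 200 or more UMIs were tested with edgeR 4.0.16 (quasi-likelihood test in R 4.3.3, library size the total count) and p-values were adjusted by Benjamini-Hochberg over all genes tested. The test of the difference between gated and other T cells used a mouse block. Shares were compared by the two-sided exact permutation test over 4 mice against 4, adjusted over 10 tests, of which 4 rest on a gene that is not reported here, as are some other genes. The script was tested on simulated data. Alternatives used DESeq2 1.42.0, limma 3.58.1 (log2 of mean CPM + 1), TMM scaling, other count minimums (50, or none), barcodes thinned to 4000 UMIs, stricter gates and each mouse left out. B cells were barcodes with 3 or more UMIs of Cd79a, Cd79b and Ms4a1, fewer than 3 C1q UMIs and none of Cd3d, Cd3e and Trac, and macrophages had 30 or more C1q UMIs and none of those 3.

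Members and gene lists were chosen with earlier results of these data known. The named genes were those of the gate and of 23 lists, the 10 highest and 10 lowest fold changes among called genes without overlap, and the 15 highest and 15 lowest ratios of gated to other T cells (10 CPM added) that held in all 8 mice. Ribosomal protein genes and further called genes were named after their values were seen. Positions are those of the mm10 annotation GENCODE M21, and 5 of 6 markers had a promoter in the RefSeq table. Depth per mouse limits the precision, and intervals and floors cover counting error only.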

Additional observations from a re-analysis of the deposited data

Results flagged for a closer look

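In 96 groups of 4 mice, 6 had a mouse whose gap to the nearest other mouse, divided by the whole range, was above Dixon's 95% critical value for 4 samples, and chance flags about 1 group in 20. The CD4-type share of the gated cells was 31.8% in CaMKK2 KO mouse 3 and between 62.1% and 64.7% in the other CaMKK2 KO mice. Gm8797 was 34.8 CPM in WT mouse 1, from 2 UMIs, against 4.40 to 6.42 in the other WT mice. Apoe was 159 CPM in CaMKK2 KO mouse 3 and at most 23.8 in the others. Smad7 was 85.8 CPM in CaMKK2 KO mouse 1 and 164 to 176 in the others. Rps4x was 4751 CPM in its highest WT mouse against at most 4402, and Rps19 was 4656 CPM in its lowest WT mouse against at least 5347.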

How the results depend on the processing

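No paired analysis was possible because mouse numbers are hashtag numbers within a genotype and pair no mice across genotypes. The 37 called genes kept their direction in every alternative in which they were tested except within single coreceptor classes. In CD4-type cells alone the log2 fold changes turned to 0.10 for Rpl35, 0.0113 for Rpl39, 0.0496 for Rps4x, 0.0787 for Rpl36a, 0.21 for Rps20, 0.10 for Rps19, 0.0716 for Rpl23 and 0.28 for Rps18, and in CD8-type cells alone to 0.0425 for Cd8b1, 0.14 for Cd8a and -0.48 for Aldoa, with fewer cells and genes tested in both. Genes called in the gated cells, 12 higher and 25 lower, became 25 and 45 with C1q under 3 UMIs, 4 and 0 in CD4-type cells alone, 1 and 5 in CD8-type cells alone, and 96 and 53 without a count filter. They became 0 and 0 with 4 or more UMIs of Tcf7, Lef1 and S1pr1, where 721 genes were tested (103 at an unadjusted p under 0.05 by edgeR). Those lower were 58 by DESeq2, 42 with TMM scaling and 14 by limma, and those higher were 27 without cycling barcodes, a choice made after seeing the data. With each mouse left out they ran from 0 to 44 higher and from 2 to 41 lower. In the other T cells, 68 higher and 31 lower, the counts became 28 and 15 with C1q under 3, 125 and 125 by DESeq2 and 293 and 79 without a filter. There, 59 were lower with TMM scaling and 47 without the top Scrublet scores, and 41 were higher by limma and 105 with a minimum of 50 UMIs. With each mouse left out they ran from 19 to 190 higher and from 12 to 83 lower. The genotype difference differed between the classes for 0 genes, against 3 (lower) with a minimum of 50 UMIs, 24 and 52 without a filter, 1 (lower) with 4 or more stem gene UMIs, 1 and 1 without the top Scrublet scores, and from 0 to 1 with each mouse left out. Genes higher in the gated cells of every mouse numbered 107 with 4 or more stem gene UMIs and from 227 to 330 with each mouse left out. No share passed after adjustment, and signs turned for several. A share at the smallest p of 4 mice against 4, 0.0286 by the exact permutation test, could not pass alone after adjustment over 10 tests. In percentage points, the difference in the share of T cells was 0.00967 without the top Scrublet scores and -4.31 to 1.74 with each mouse left out. That in the share of all barcodes was -0.0365 when thinned and -0.0897 to 0.694 with each mouse left out. With 4 or more stem gene UMIs, cells with both coreceptors differed by -2.10. The cause of these changes was not tested.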
